A study of Mus musculus with 2 samples.

Results

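The genes described here are 9 genes of the visual cycle: Rpe65, Lrat, Rdh5, Rdh10, Rdh11, Dhrs3, Rlbp1, Rgr and Rrh. They were taken by symbol, all 9 matched 1 row each of the 27998 gene rows, and each was followed through the cells of both libraries. Droplet RNA counts were made per cell from C57BL/6J mouse eyes, from the pigmented epithelium that underlies the photoreceptors (RPE) together with the vascular choroid. One group received sodium iodate (NaIO3, an oxidant toxic to the RPE) in a vein at 20 mg/kg, and the other received an equal volume of its solvent, phosphate-buffered saline (PBS). Both groups were labelled as treated for 7 days, and the eyes of 6 mice per group, whose age and sex were not stated, went into 1 droplet library each. The neural retina was removed after a protease digest and brown hexagonal cells were picked under a microscope, so the cell mix reflects that handling. With 1 library per group, no difference between the libraries could be checked against replicates, and none was tested.

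Vision uses 11-cis retinal, which light turns into all-trans retinal. The RPE takes up the all-trans retinol that photoreceptors return, esterifies it, isomerises the ester to 11-cis retinol, oxidises that to 11-cis retinal and sends it back bound to a carrier protein. Rpe65 is the isomerase, Lrat makes the ester that it uses, Rdh5 and other short-chain dehydrogenases carry out the redox steps, Rlbp1 (CRALBP) binds the 11-cis forms, and Rgr and Rrh are opsin relatives of the RPE that bind retinal.

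Sequence upstream of the start was read for the members whose RNA was compared most closely below. RefSeq windows of 250 bases before the annotated start (GRCm38.p6) were found for 8 of the 9 members, 11 windows in all. Short motifs, 3 in all, were searched on both strands: TAATCC (reverse GGATTA), the core bound by OTX factors, and the E-box forms CACATG (reverse CATGTG) and CACGTG (its own reverse), which MITF, the pigment cell factor, can bind. No motif overlaps another as found here. Rpe65 and Rgr are shown because their RNA had the most similar pattern over cell classes, Rdh5 because it varied with both from cell to cell, and Dhrs3 because it alone was highest outside RPE-gated cells in both libraries. The windows are chr3:159598931-159599180 on the plus strand for Rpe65, chr14:37049015-37049264 on the minus strand for Rgr, chr10:128919298-128919547 on the minus strand for Rdh5 and chr4:144892577-144892826 on the plus strand for Dhrs3 (the first of its 3 windows). Each is written 5′ to 3′ on the gene's strand, with motif matches in capitals.
Rpe65: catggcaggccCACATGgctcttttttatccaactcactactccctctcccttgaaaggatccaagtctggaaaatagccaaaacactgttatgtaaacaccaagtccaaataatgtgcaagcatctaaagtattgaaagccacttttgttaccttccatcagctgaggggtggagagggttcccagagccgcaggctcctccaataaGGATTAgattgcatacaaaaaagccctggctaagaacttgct
Rgr: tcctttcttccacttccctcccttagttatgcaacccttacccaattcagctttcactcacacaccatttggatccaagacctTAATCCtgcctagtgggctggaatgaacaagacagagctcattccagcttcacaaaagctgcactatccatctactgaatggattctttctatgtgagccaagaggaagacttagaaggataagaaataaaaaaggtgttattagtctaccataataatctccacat
Rdh5: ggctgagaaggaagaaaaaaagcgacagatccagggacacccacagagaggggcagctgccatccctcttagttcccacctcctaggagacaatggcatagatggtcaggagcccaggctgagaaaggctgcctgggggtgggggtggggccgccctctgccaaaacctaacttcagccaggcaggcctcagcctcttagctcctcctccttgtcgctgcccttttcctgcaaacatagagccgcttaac
Dhrs3: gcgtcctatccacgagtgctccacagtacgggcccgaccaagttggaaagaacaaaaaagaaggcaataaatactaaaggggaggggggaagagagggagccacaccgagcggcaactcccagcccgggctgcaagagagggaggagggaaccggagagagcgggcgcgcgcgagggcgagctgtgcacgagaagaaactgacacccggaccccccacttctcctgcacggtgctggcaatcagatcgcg
The Rpe65 window held GGATTA 42 bases before the start and CACATG 239 bases before it, and the Rgr window held TAATCC 167 bases before its RefSeq start, which lies upstream of the GENCODE M21 span of Rgr given below. The Rdh5 and Dhrs3 windows shown held none of the motifs. The Rdh5 window lies before its RefSeq start but inside the GENCODE M21 span of Rdh5 given below. The Rdh11 windows likewise lie inside the GENCODE M21 span of Rdh11. Of the other windows, that of Rlbp1 held CACATG at 124 bases and the second of Rdh11 held CACGTG at 182 and 230 bases, while those of Lrat and Rrh held none. Over all 32851 RefSeq windows, 6.25% held the OTX core, 12.3% held CACATG and 6.02% held CACGTG. The matches are descriptions of letters, not of bound sites.

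In GENCODE M21 coordinates (GRCm38) the genes lie as follows. Rpe65 (ENSMUSG00000028174) spans chr3:159599175-159625321, Lrat (ENSMUSG00000028003) spans chr3:82892579-82903973 and Rrh (ENSMUSG00000028012) spans chr3:129804408-129822587. Rdh5 (ENSMUSG00000025350) spans chr10:128913593-128922888, Rdh10 (ENSMUSG00000025921) spans chr1:16105774-16133734, Rdh11 (ENSMUSG00000066441) spans chr12:79174337-79192293 and Dhrs3 (ENSMUSG00000066026) spans chr4:144892827-144928209. Rlbp1 (ENSMUSG00000039194) spans chr7:79374870-79387048 and Rgr (ENSMUSG00000021804) spans chr14:37034909-37048964. Rdh5 shares 720 of its 2809 annotated exon bases with Bloc1s1 on the same strand, so reads there could be given to either gene or to none, and its counts are uncertain to that extent. No other member shares exon bases with another annotated gene.

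The NaIO3 library held 4058 barcodes with 51168520 unique molecular identifiers (UMIs) and the PBS library 4618 with 51055592. After filters, 3816 NaIO3 cells and 4225 PBS cells were kept, and 24 barcode sequences occurred in both libraries. RPE-gated cells had at least 25 UMIs of 10 RPE markers per 10000 UMIs with at least 3 of the markers seen, and none of the 9 genes was used in a gate. They numbered 2252 in NaIO3 (59.0% of cells, median depth 9507 UMIs) and 3471 in PBS (82.2%, 11315 UMIs). Since the gate sums these 10 markers, their presence in gated cells is no check of the label. Best1 had only 13 UMIs in NaIO3 and 17 in PBS RPE-gated cells, and Cldn19 had 0 and 1. The gate thus rests in effect on the other 8 markers. In the summed RNA of RPE-gated cells several other cell types' marker lists differed between libraries. Levels are given as CPM, the UMIs of a gene or list per 1000000 UMIs of the pool. The macrophage list came to 1768 CPM in NaIO3 and 225 CPM in PBS, and the surface epithelium list to 1987 and 256 CPM. The rod list came to 348 and 881 CPM, and the erythroid list to 31.1 and 553 CPM. The Müller glia list came to 1672 and 1232 CPM. Its sum here includes Car14, a gene that RPE-gated cells held themselves, so it cannot be read as glial RNA. The fibroblast list (68.8 and 69.6 CPM), the endothelial list (20.3 and 21.4 CPM) and the melanocyte list (64.5 and 65.5 CPM) were close between the libraries. Mitochondrial genes took 10.6% of these UMIs in NaIO3 and 8.19% in PBS, and Ttr took 5.92% and 9.35%. The part of any of these in the results was not tested. Values in brackets are exact 95% intervals and cover counting error only.

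When cells were clustered without the 9 genes, the RPE cells of the libraries fell almost wholly in different clusters. Of the 8 clusters named RPE, 4 held NaIO3 cells alone (1282, 774, 111 and 24), 2 held PBS cells alone (1999 and 1123), 1 held 2 NaIO3 and 286 PBS cells, and 1 held 45 of each. The values below thus compare different clusters of one gated class.

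In RPE-gated cells most of the visual cycle genes stood close to their PBS level after NaIO3, and together they took 2.11% of UMIs in NaIO3 and 2.41% in PBS, a ratio of 0.876 (0.873 to 0.878). The lowest ratios belonged to the acyltransferase Lrat and to Rdh10, and those of Rlbp1, Rdh11 and Dhrs3 were at or just above 1. Of the 9 genes, 0 passed a 1.5-fold difference, against 30.2% of the 14279 genes with at least 20 UMIs (23.3% higher and 6.90% lower in NaIO3). Against the 1941 genes with at least as many UMIs as the least abundant member, 12.3% passed it (9.38% higher and 2.89% lower). The median log2 ratio was -0.17 over the 9 members, 0.18 over all genes tested and 0.01 over those 1941 genes. Of the members, 9 lay below the median of all genes and 7 below that of the 1941 genes, with Rdh11 (0.075) and Dhrs3 (0.11) above it. The 1941 genes share only a lower limit of UMIs with the members and were not matched to them in abundance.

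Rpe65, the isomerase, was at 3315 CPM (3294 to 3337) in NaIO3 and 3990.1 CPM (3971 to 4009) in PBS RPE-gated cells, a ratio of 0.831 (0.824 to 0.838). Lrat, which supplies its ester substrate, was at 1485 CPM (1471 to 1499.7) in NaIO3 and 1929 CPM (1916 to 1942) in PBS, a ratio of 0.770 (0.761 to 0.779). Neither pair of counting intervals overlapped, and both genes were below their PBS level in all 15 alternative treatments of the data.

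Among the dehydrogenases, Rdh5, the main 11-cis retinol dehydrogenase of the RPE, was at 4453 CPM (4428 to 4479) in NaIO3 and 5008 CPM (4986 to 5029) in PBS, a ratio of 0.889 (0.883 to 0.896). Rdh10, a retinol dehydrogenase also needed for retinoic acid in the mouse embryo, was at 1784 CPM (1768 to 1799.97) in NaIO3 and 2219.6 CPM (2206 to 2234) in PBS, a ratio of 0.804 (0.795 to 0.813). These 2 genes were also below their PBS level in all 15 alternatives. Rdh11, a dehydrogenase that acts on both cis and trans retinoids, was at 64.2 CPM (61.2 to 67.3) in NaIO3 and 61.0 CPM (58.7 to 63.4) in PBS, a ratio of 1.05 (0.991 to 1.12) whose interval includes 1. Dhrs3, which reduces all-trans retinal to retinol, was at 103 CPM (99.2 to 107) in NaIO3 and 95.5 CPM (92.6 to 98.5) in PBS, a ratio of 1.08 (1.03 to 1.13). The sign of the log2 ratio of Rdh11 and Dhrs3 was negative under TMM scaling, which shifted all genes down by about the median given above, and with a mitochondrial limit of 10%.

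Rlbp1, the carrier of the 11-cis forms, was at 3062 CPM (3041 to 3083) in NaIO3 and 3044 CPM (3027 to 3061) in PBS, a ratio of 1.01 (0.997 to 1.01), and its intervals overlapped; its sign was negative in 4 of the 15 alternatives, TMM scaling among them. Rgr, an opsin that isomerises retinal in light, was at 6512 CPM (6481 to 6542) in NaIO3 and 7406 CPM (7379.99 to 7431.5) in PBS, a ratio of 0.879 (0.874 to 0.884), and was below its PBS level in all 15 alternatives. Rrh (peropsin), an opsin of the RPE microvilli, was at 323 CPM (316 to 329.6) in NaIO3 and 346 CPM (340.4 to 352) in PBS, a ratio of 0.933 (0.909 to 0.958). Its sign turned when the cells richest in pigment genes were left out, as described below for those cells.

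**Figure D1:**
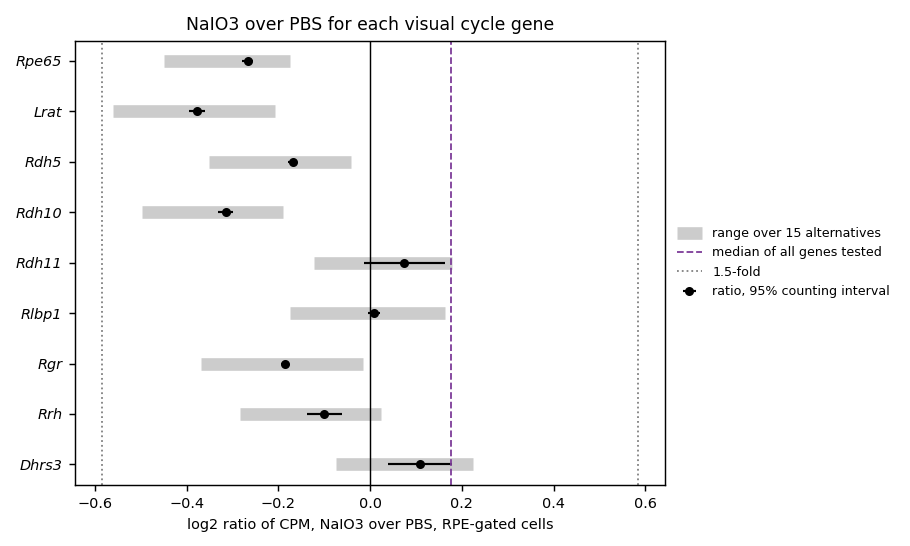
Log2 ratio of CPM, NaIO3 over PBS, in RPE-gated cells for each gene (points, with 95% counting intervals) and its range over 15 alternatives (grey bars), beside the median of all genes tested (dashed, 0.18) and 1.5-fold (dotted). Lrat at -0.38 is the lowest point and Dhrs3 at 0.11 the highest; no point or bar reaches 1.5-fold, and the bars of Rdh11, Rlbp1, Rrh and Dhrs3 cross 0.

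Nearly every RPE-gated cell held RNA of the main enzymes. With each cell thinned to 3000 UMIs (2 PBS cells were shallower and left out), Rpe65 was seen in 98.5% of NaIO3 and 99.3% of PBS cells, Lrat in 96.6% and 98.8%, and Rdh10 in 98.5% and 99.3%. Rgr, Rdh5 and Rlbp1 were each seen in at least 99.7% of RPE-gated cells of either library. For comparison, macrophage-gated cells, which are not known to run the visual cycle, held Rpe65 in 50.3% of NaIO3 cells (median depth 11446 UMIs) and 68.9% of PBS cells (4138 UMIs), and Rgr in 83.4% and 94.2%. A UMI of these genes in a cell is therefore weak evidence of its type, while joint detection set RPE-gated cells apart from the rest: Rpe65, Lrat, Rdh5, Rlbp1 and Rgr were all seen in 95.4% (94.4 to 96.2) of NaIO3 and 97.8% (97.3 to 98.3) of PBS RPE-gated cells, against 8.96% (6.53 to 11.9) of NaIO3 and 22.3% (14.7 to 31.6) of PBS macrophage-gated cells. In the other gated classes this share lay at or below 11.8% in NaIO3 and reached 34.0% (20.9 to 49.3) in PBS mural-gated and 26.3% (13.4 to 43.1) in PBS rod-gated cells. Without thinning, Rpe65 was seen in 99.8% of NaIO3 and 99.9% of PBS RPE-gated cells and in 91.0% of NaIO3 and 84.5% of PBS macrophage-gated cells.

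Of the 9 genes, 7 were higher in RPE-gated cells than in every other gated class of both libraries, and Rdh11 and Dhrs3 were not. Rpe65 lay between 178 CPM (endothelial) and 283 CPM (Müller glia) in the 7 other classes of NaIO3, and between 346 CPM (surface epithelium) and 554 CPM (mural) in the 6 of PBS, so that its RPE level was 11.7 and 7.20 times the next highest. Lrat lay between 102 and 166 CPM in the other NaIO3 classes and between 196 and 269 CPM in the PBS ones. Rdh5 lay between 306 and 524 CPM in NaIO3 and between 496 and 697 CPM in PBS, and Rgr between 461 and 674 CPM in NaIO3 and between 861 and 1128 CPM in PBS. For these 4 genes every other gated class sat in one band far below RPE, and for Rpe65, Lrat and Rgr the NaIO3 band lay wholly below the PBS band.

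**Figure D2:**
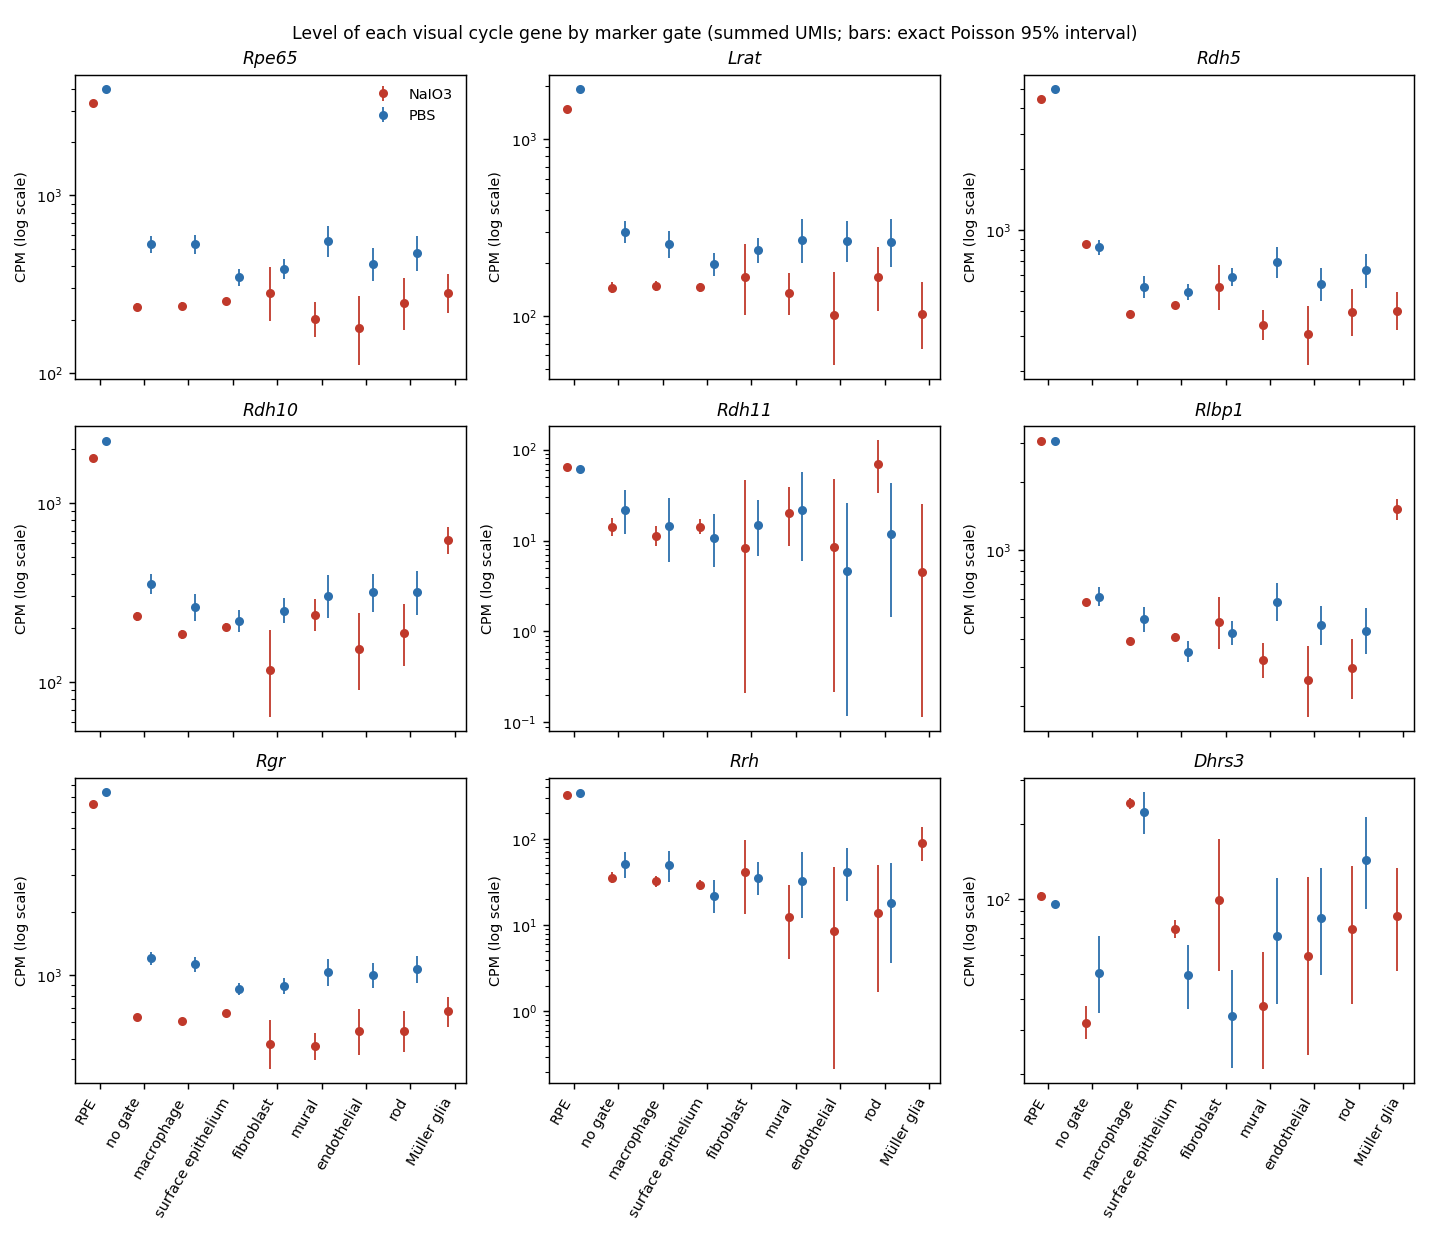
CPM (log axis) of each gene in RPE-gated cells, cells that passed no gate and 7 other gated classes, NaIO3 (red) left of PBS (blue), with exact Poisson 95% intervals. Rpe65, Lrat, Rdh5 and Rgr show 1 high class, Rlbp1 and Rdh10 also stand out in Müller glia-gated cells (1515 and 616 CPM), and Dhrs3 is highest in macrophage-gated cells (243 CPM in NaIO3 and 223 CPM in PBS); the PBS library had too few Müller glia-gated cells for a value.

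The band was used as a measured background. For each class, the level of Rpe65, Lrat and Rgr together was taken as a share of their RPE level, which came to between 7.05% and 9.40% over the 7 NaIO3 classes and between 10.5% and 14.4% over the 6 PBS classes. The 10 RPE markers of the gate, none of them a visual cycle gene, stood at 8.66% to 15.9% of their RPE level in the NaIO3 classes and 10.3% to 14.5% in the PBS classes. The other 6 genes were then read as observed UMIs over those that the share gives. Whether the band is free RNA in the droplets was not tested, since the matrices held called cells alone. In surface epithelium-gated cells Rdh5 had 3301 UMIs against 3259 at the background in NaIO3 and 470 against 500.2 in PBS, so its RNA there was at this background in both. Rlbp1 and Rdh10 in the same NaIO3 cells were at 1.42 (1.37 to 1.47) and 1.21 (1.15 to 1.27) times the background, and Rlbp1 was at 1.45 (1.39 to 1.51) in NaIO3 macrophage-gated cells, so values of this size occur in classes not known to make these genes. With the RPE markers as the background, NaIO3 surface epithelium-gated cells had Rdh5 at 0.844 (0.815 to 0.874), Rdh10 at 1.01 (0.957 to 1.06) and Rlbp1 at 1.19 (1.14 to 1.23). The sizes thus rest on the genes taken as the background.

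**Figure D3:**
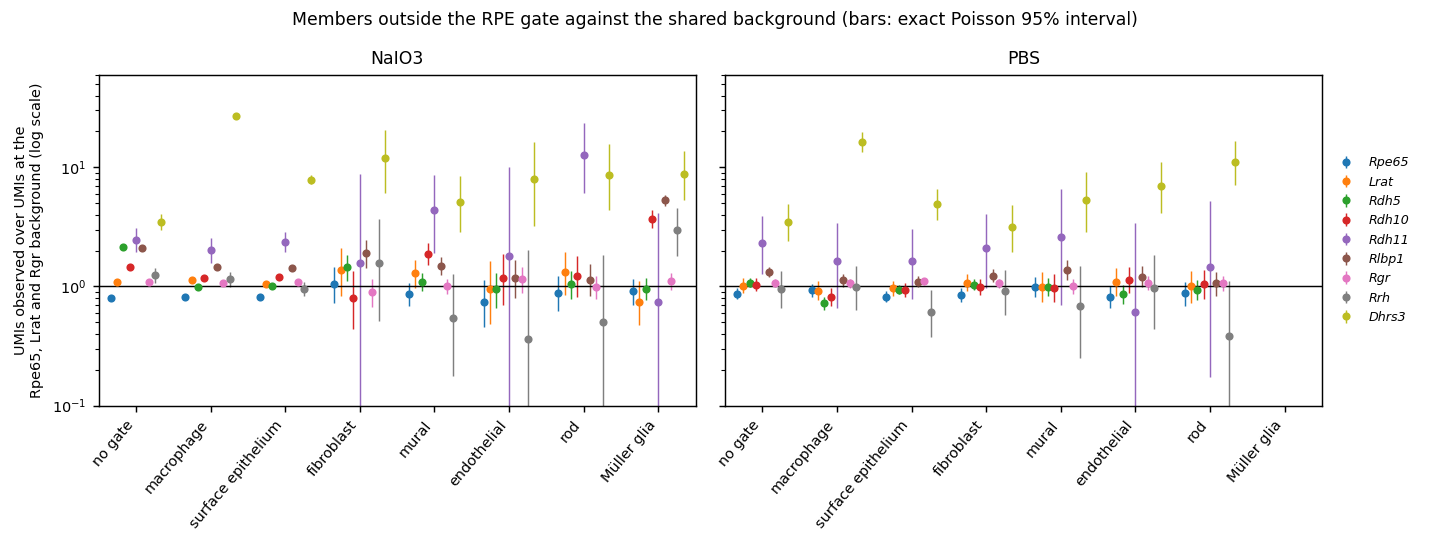
Observed UMIs of each gene over the UMIs at the background set by Rpe65, Lrat and Rgr (log axis, exact Poisson 95% intervals), by class, NaIO3 left and PBS right. A value of 1 is the background; Dhrs3 lies above it in every class of both libraries, at 26.8 in NaIO3 and 16.2 in PBS macrophage-gated cells, and in Müller glia-gated cells of NaIO3 Rlbp1 lies at 5.28 and Rdh10 at 3.68.

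Dhrs3 departed most from the group. Macrophage-gated cells held it at 243 CPM (231 to 255; 469 cells) in NaIO3 and 223 CPM (183 to 269; 103 cells) in PBS, above its RPE level of 103 CPM and 95.5 CPM. The macrophage levels had a NaIO3 to PBS ratio of 1.09 (0.896 to 1.34), whose interval includes 1. The UMIs behind them were 1503 against a background of 56.0 in NaIO3 and 108 against 6.65 in PBS. Surface epithelium-gated cells held Dhrs3 at 76.3 CPM (70.3 to 82.7) in NaIO3 and 49.6 CPM (36.4 to 65.9) in PBS, a ratio of 1.54 (1.14 to 2.12), from 594 and 47 UMIs. In rod-gated cells it was at 76.0 CPM (37.9 to 136) in NaIO3 from 11 UMIs and 143 CPM (91.8 to 213) in PBS from 24 UMIs, and the intervals overlapped.

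In the 25 Müller glia-gated cells of NaIO3, the glia that span the retina and recycle retinoids for cones, 3 further members stood above the background. Rlbp1, which Müller glia are known to make, was at 1515 CPM (1358 to 1686), from 337 UMIs against a background of 63.9. Rdh10 was at 616 CPM (517 to 728), from 137 UMIs against 37.2. Rrh was at 89.9 CPM (54.9 to 139), from 20 UMIs against 6.73, and Dhrs3 had 19 UMIs against 2.15. With the RPE markers as the background (15.9% of their RPE level in these cells) the values over background were 3.10 for Rlbp1, 2.17 for Rdh10 and 1.75 (1.07 to 2.70) for Rrh, in place of 5.28, 3.68 and 2.97. Rgr, also described in Müller glia, had 150 UMIs and helped to set the background, so no excess can be read for it. Car14 was left out of this gate because RPE-gated cells held it.

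Rdh11 rested on few UMIs outside the RPE. In rod-gated cells it was at 69.1 CPM (33.1 to 127) in NaIO3, from 10 UMIs in 17 cells against a background of 0.789, and at 11.9 CPM (1.45 to 43.1) in PBS, from 2 UMIs in 38 cells. The NaIO3 rod interval includes the RPE level of 64.2 CPM, so the order of these 2 classes was not resolved at this depth. With stricter gates, or with clusters made without the 9 genes, Rdh11 was highest in RPE in both libraries. In macrophage-gated cells it had 70 UMIs against 34.9 in NaIO3 and 7 against 4.25 in PBS, and in surface epithelium-gated cells 111 against 47.0 in NaIO3 and 10 against 6.09 in PBS.

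The cells that passed no gate differed between the libraries. In NaIO3 they numbered 251 with a median depth of 21664 UMIs, and Rdh5 had 4637 UMIs there against a background of 2167 (2.14 times, 2.08 to 2.20) and Rlbp1 3153 against 1490.1 (2.12 times, 2.04 to 2.19). Rpe65 in the same cells was at 0.793 of the background and Lrat at 1.09. Both genes helped to set that background, so their values are no independent contrast to Rdh5 and Rlbp1. In PBS they numbered 139 with a median depth of 3777 UMIs, and Rlbp1 had 402 UMIs against 303 (1.33 times, 1.201 to 1.463). Against the RPE markers of the gate, which stood at 16.5% of their RPE level in these NaIO3 cells, the values were 1.17 (1.13 to 1.201) for Rdh5 and 1.15 (1.11 to 1.195) for Rlbp1, so their size rests on the genes taken as the background. The cells were not named.

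RPE-gated cells also varied among themselves. The middle 90% of NaIO3 cells held from 9.44 to 56.3 Rpe65 UMIs per 10000 (median 30.0), and of PBS cells from 13.5 to 68.7 (median 36.9). For Lrat these were 5.02 to 28.8 (median 14.7) in NaIO3 and 8.44 to 32.8 (median 18.4) in PBS. After thinning, the coefficient of variation beyond counting was 41.3% in NaIO3 and 42.5% in PBS for Rpe65, 33.2% and 39.1% for Rdh5, 39.1% and 32.1% for Lrat, 38.7% and 30.7% for Rgr, 33.4% and 25.01% for Rlbp1, and 31.1% and 27.7% for Rdh10. Rpe65 thus had the widest spread of these 6 genes in both libraries, and Lrat, Rgr, Rlbp1 and Rdh10 had a wider spread in NaIO3. Lrat was absent at 3000 UMIs from 3.37% of NaIO3 and 1.18% of PBS cells, where counting alone at the mean level gives 0.933% and 0.306%.

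**Figure D4:**
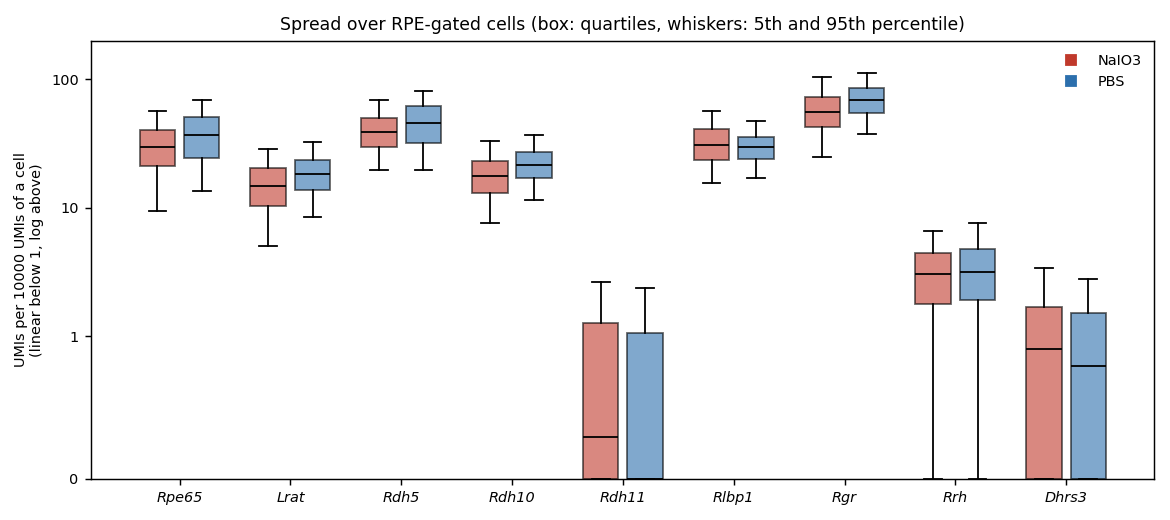
UMIs per 10000 of each gene in single RPE-gated cells (2252 NaIO3 cells in red, 3471 PBS cells in blue); boxes are quartiles with the median, whiskers the 5th and 95th percentiles, and the axis is linear below 1 and logarithmic above. The boxes of the libraries overlap for every gene; the Lrat median is 14.7 in NaIO3 and 18.4 in PBS, and the Rgr median 55.6 and 68.6.

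From cell to cell, Rpe65, Rdh5 and Rgr went together in both libraries, and Lrat went with Rdh10 at lower values over all RPE-gated cells. Rlbp1 went with Lrat and Rdh10 in NaIO3 but no more with them than with the first 3 genes in PBS. Over thinned RPE-gated cells of a library (2252 NaIO3, 3469 PBS), Spearman's rank correlation was 0.36 in NaIO3 and 0.46 in PBS for Rpe65 with Rdh5, 0.41 and 0.42 for Rdh5 with Rgr, and 0.37 and 0.36 for Rpe65 with Rgr. Between Lrat and Rdh10 it was 0.26 in NaIO3 and 0.20 in PBS, between Lrat and Rlbp1 0.28 and 0.12, and between Rdh10 and Rlbp1 0.24 and 0.13. Rlbp1 was at 0.04 in NaIO3 and 0.19 in PBS with Rpe65, at -0.04 and 0.12 with Rdh5, and at -0.04 and 0.13 with Rgr. Of the pairs of Lrat or Rdh10 with the first 3 genes, Rpe65 with Rdh10 was the highest in NaIO3 (0.15, against 0.04 in PBS) and Rdh5 with Rdh10 the lowest in both (-0.01 in NaIO3 and -0.12 in PBS). The median over all 36 pairs was 0.04 in each library. Within the largest cluster of each library (1275 NaIO3 and 1992 PBS cells), Rpe65 with Rdh5 was at 0.26 in NaIO3 and 0.49 in PBS, Lrat with Rdh10 at 0.22 and 0.16, and Rlbp1 with Lrat at 0.32 and 0.094. Rlbp1 with Rpe65 was at 0.030 in NaIO3 and 0.17 in PBS there, so that in PBS its value was higher with Rpe65 than with Lrat. In the cells of that cluster with under 10% mitochondrial UMIs (221 NaIO3 and 1481 PBS cells), Rdh5 with Rgr was at 0.16 in NaIO3 and 0.44 in PBS, Lrat with Rdh10 at 0.45 and 0.14, Rlbp1 with Lrat at 0.41 and 0.058, and Rlbp1 with Rpe65 at 0.081 and 0.20. These values describe cells that share a library and its handling.

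Rgr and Rdh5 also parted from Lrat and Rdh10 when RPE-gated cells were divided by mitochondrial share. Cells under 10%, from 10% to 15% and above 15% numbered 787, 878 and 587 in NaIO3 and 2417, 756 and 298 in PBS, and their median depth was 15762, 8999.5 and 6202 UMIs in NaIO3 and 12994, 8356.5 and 5329 in PBS. From the lowest to the highest bin, Rgr was at 7638, 5720.3 and 4204 CPM in NaIO3 and at 7722, 6188 and 5922 CPM in PBS. Rdh5 was at 5168, 3899 and 3105 CPM in NaIO3 and at 5317, 3815 and 3571 CPM in PBS. Both genes thus had less RNA per UMI in each higher bin of both libraries, the highest bin being at 0.550 (0.542 to 0.559) of the lowest in NaIO3 and 0.767 (0.752 to 0.782) in PBS for Rgr, and at 0.601 (0.590 to 0.612) and 0.672 (0.655 to 0.689) for Rdh5. Rpe65 was also lower in the highest bin, at 0.716 (0.701 to 0.731) in NaIO3 and 0.835 (0.814 to 0.857) in PBS.

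Lrat and Rdh10 did not follow. Lrat in the highest bin was at 1.04 (1.01 to 1.07) of the lowest in NaIO3 and 1.15 (1.11 to 1.19) in PBS, and Rdh10 at 1.14 (1.11 to 1.17) and 1.28 (1.24 to 1.31). Rlbp1 was at 1.253 (1.23 to 1.28) in NaIO3 and 0.987 (0.960 to 1.01) in PBS. Mitochondrial UMIs are part of the total behind these CPM. Among cells of 6000 to 15000 UMIs the ratios of highest to lowest bin were 0.599 in NaIO3 and 0.850 in PBS for Rgr, 0.655 and 0.709 for Rdh5, and 0.790 and 0.933 for Rpe65. For Lrat they were 0.945 and 1.18, for Rdh10 1.11 and 1.31, and for Rlbp1 1.10 and 0.943. The sign for Lrat in NaIO3 thus turned in this depth range. Depth was not equal between the bins there. The lowest and highest bins had medians of 11181 and 7256 UMIs in NaIO3, and of 11351 and 7760.5 UMIs in PBS. In PBS in that range the intervals of Rlbp1 (0.906 to 0.982) and Rpe65 (0.900 to 0.966) overlapped, and these genes did not part there.

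**Figure D5:**
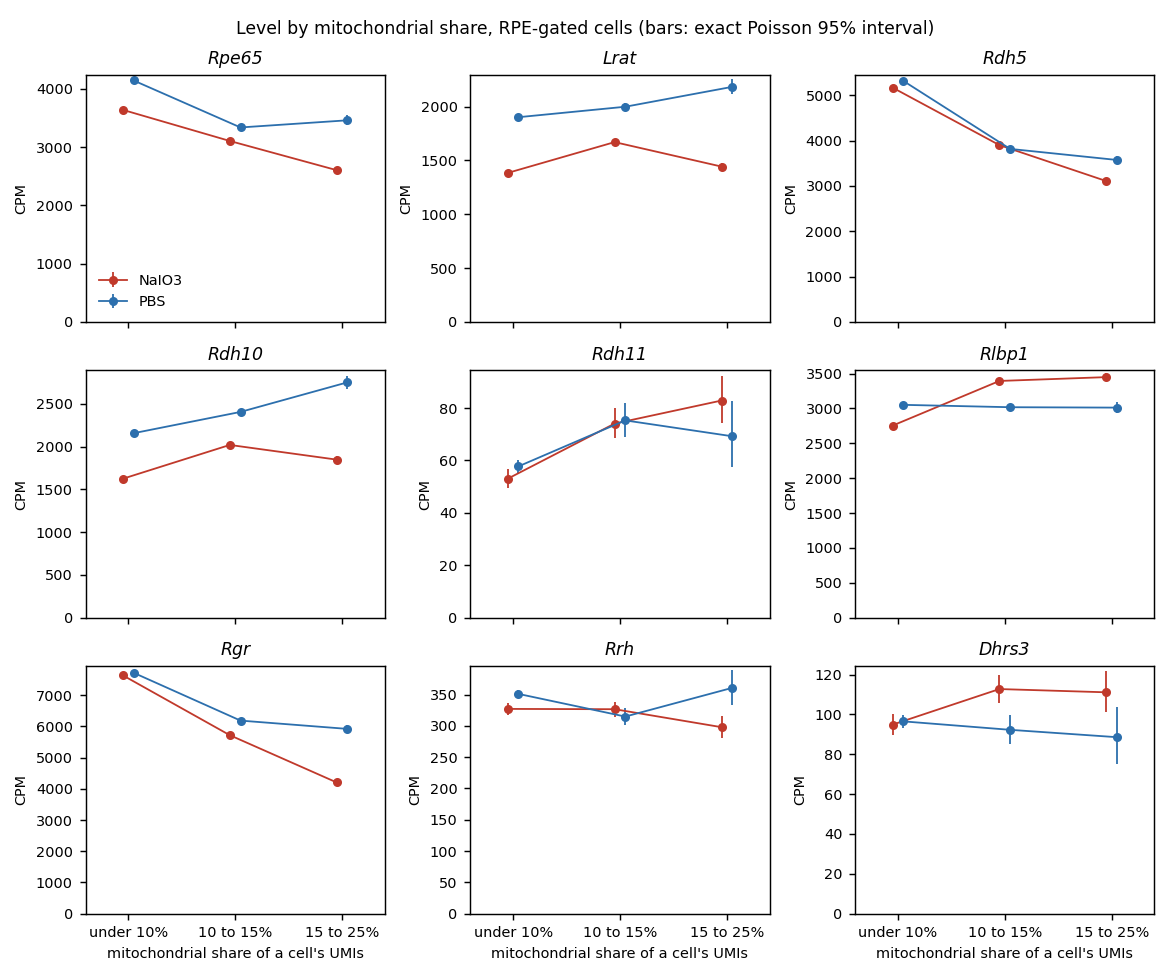
CPM of each gene in RPE-gated cells with a mitochondrial share under 10%, from 10 to 15% and from 15 to 25%, NaIO3 in red and PBS in blue, with exact Poisson 95% intervals. Rgr, Rdh5 and Rpe65 are lower in the highest bin than in the lowest in both libraries, whereas Rdh10 is higher there in both; Lrat is lower in NaIO3 than in PBS in all 3 bins.

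Since NaIO3 cells lay more often in the higher bins, the library comparison was repeated within bins. In cells under 10%, the NaIO3 to PBS ratio was 0.989 (0.982 to 0.996) for Rgr and 0.972 (0.964 to 0.980) for Rdh5, nearer to 1 than over all cells, and 0.878 (0.869 to 0.887) for Rpe65. Lrat at 0.728 (0.716 to 0.739) and Rdh10 at 0.753 (0.742 to 0.764) were farther from 1 than over all cells, but in low-bin cells of 6000 to 15000 UMIs they were at 0.851 (0.827 to 0.875) and 0.817 (0.796 to 0.839), nearer to 1 than over all cells. Rlbp1 was at 0.902 (0.892 to 0.913) in the low bin and at 1.02 (0.998 to 1.04) in its cells of that depth range. In cells from 10% to 15% the ratios were 0.924 for Rgr, 0.930 for Rpe65, 0.836 for Lrat and 0.840 for Rdh10. Rdh5 was at 1.02 (1.006 to 1.04) and Rlbp1 at 1.12 (1.10 to 1.15) there. In cells above 15% the ratios were 0.710 (0.693 to 0.728) for Rgr, 0.661 (0.634 to 0.688) for Lrat and 0.672 (0.648 to 0.696) for Rdh10. Rpe65 was at 0.753 (0.729 to 0.777), Rdh5 at 0.870 (0.844 to 0.897) and Rlbp1 at 1.15 (1.11 to 1.18) there. Lrat and Rdh10 were thus lower in NaIO3 within every bin. Rlbp1 was below its PBS level in the low bin and above it in the middle and high ones, and Rdh5 was above it in the middle bin only.

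RPE-gated cells also differed by pigment genes. The 25% of cells richest in 8 melanin genes, those above 23.0 UMIs per 10000 when both libraries were ranked together, held 628 NaIO3 and 803 PBS cells. In NaIO3, Lrat in these cells was at 0.633 (0.618 to 0.649) of its level in the other RPE-gated cells, Rdh10 at 0.728 (0.713 to 0.744) and Rlbp1 at 0.747 (0.735 to 0.759). In PBS the same ratios were 0.827 (0.812 to 0.843), 0.866 (0.851 to 0.880) and 0.943 (0.930 to 0.956), so all 3 genes were lower in pigment-rich cells of both libraries. This was not particular to them. Dhrs3 was at 0.826 in NaIO3 and 0.837 in PBS, Rgr at 0.855 and 0.915, and Rpe65 at 0.861 and 0.937. Rdh5 was at 0.952 in NaIO3 and 1.08 in PBS, and Rdh11 at 1.04 and 1.22. Rrh was at 299 CPM in pigment-rich and 332 CPM in other NaIO3 cells (0.902, 0.859 to 0.946), but at 425 CPM in pigment-rich and 326 CPM in other PBS cells (1.30, 1.252 to 1.35). Its NaIO3 to PBS ratio was therefore 0.705 (0.669 to 0.743) inside the pigment-rich cells and 1.02 (0.986 to 1.05) in the others. The ratio of Lrat in pigment-rich cells was farther from 1 than that of any other member there: 1047 CPM in NaIO3 and 1653 CPM in PBS (0.634, 0.616 to 0.651).

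The pattern of each member over 13 pools of cells (class by library, at least 20 cells each) was set beside that of 13006 genes by Pearson's r of log2(CPM + 1). Pools of 1 library share its handling and differ in depth, so the r values describe likeness only. RPE-gated cells formed only 1 pool of each library, and the other pools lay far below it for Rpe65, Lrat, Rdh5 and Rgr. The r values of these genes thus rest largely on that contrast. Rpe65 and Rgr were most like each other (0.996), and next came Ptgds, a prostaglandin synthase, at 0.989 with Rpe65 and 0.994 with Rgr. Lrat was most like Rgr (0.987), Ttr, the thyroxine and retinol-binding protein carrier (0.987), and Rpe65 (0.985). Rdh5 was most like Tmem56 (0.982), Tmem27 (0.979) and Rsph10b (0.978). Rdh10 and Rlbp1 both had Cspg5, a proteoglycan, as their nearest gene (0.976 and 0.981) and each other among the nearest 3 (0.969). Rrh was nearest to Itgb8 (0.967), an integrin chain, and Rdh11 to Sult1c1 (0.937), a sulfotransferase. Dhrs3 had no near match, with Sipa1l2 at 0.808 the highest.

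Other genes of retinoid handling were taken from 5 lists of 44 genes, all of which had a row, and 35 had at least 20 UMIs in RPE-gated cells. Of the 35, 13 were at least 1.5-fold higher and 5 at least 1.5-fold lower in NaIO3, with a median log2 ratio of 0.15, beside 23.3% and 6.90% of all genes and their median of 0.18. RPE-gated cells were the highest class in both libraries for Retsat, Degs1, Adh5 and Stra6, among others. Stra6, the receptor for retinol-binding protein, was at 676 CPM in NaIO3 and 573 CPM in PBS (1.18, 1.16 to 1.201).

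The list members with ratios far from 1 were mostly at higher levels in other classes. In the uptake and binding list (1 higher and 1 lower of 9), Rbp2, the intestinal retinol-binding protein, was at 37.3 CPM in NaIO3 and 2.17 CPM in PBS RPE-gated cells, and at 1544 and 1156 CPM in surface epithelium-gated cells. Rbp3, the carrier between photoreceptors and RPE, was at 9.22 CPM in NaIO3 and 20.5 CPM in PBS, and at 2736 and 2711 CPM in rod-gated cells. In the list of other dehydrogenases (4 higher and 1 lower of 9), Adh7 was at 8.30 and 0.582 CPM, and at 418 and 221 CPM in surface epithelium-gated cells; Rdh12, the photoreceptor retinal reductase, was at 4.26 and 7.66 CPM, and at 954 and 490 CPM in rod-gated cells. The surface epithelium and rod marker sums given above moved with these genes in RPE-gated cells, and their part was not tested.

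In the retinoic acid list 4 of 6 were higher and 1 lower, and none was highest in RPE-gated cells. Aldh1a3, which makes retinoic acid, was at 14.95 CPM in NaIO3 and 2.42 CPM in PBS, and at 438 and 62.2 CPM in surface epithelium-gated cells. Aldh1a2, another retinal oxidase, was at 0.367 CPM in NaIO3 (10 UMIs) and 0.932 CPM in PBS (40 UMIs), and at 66.5 and 130.1 CPM in fibroblast-gated cells. In the acyl transfer list (3 higher and 0 lower of 6), Lpl, the lipoprotein lipase, was at 4.005 and 0.932 CPM, and at 115 and 210.4 CPM in macrophage-gated cells, while Degs1, a desaturase reported to isomerise retinol, was at 453 and 489.6 CPM (0.926, 0.906 to 0.947). Of 5 other opsins 1 was higher and 2 lower. Opn4, melanopsin, was at 9.04 CPM (7.94 to 10.2) in NaIO3 and 4.85 CPM (4.21 to 5.55) in PBS.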

How the data were processed

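The files hold raw UMI counts per gene and barcode, deposited by the authors without normalisation. Per the submitters' processing notes they came from Cell Ranger 3.0.2 on mm10; the annotation release, the cell calling and the treatment of reads that match several genes stand as not given in the sources used here. A barcode was kept if it showed 500 genes or more and a mitochondrial share of 25% or less, which removed 114 in NaIO3 and 231 in PBS. Scrublet (scanpy 1.11.5) marked 3 and 0 doublets by its automatic threshold, so the top-scoring barcodes were taken out at a rate that grows with library size, 128 and 162.

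Cells were gated by summed marker UMIs per 10000. The RPE threshold was 25, and 220 NaIO3 and 237 PBS cells lay within 1.5-fold of it. Other classes needed 10% of the mean of their 20 highest cells (at least 10) and 3 markers. Cells passing several gates (72 in NaIO3, 150 in PBS) were left out. Gate thresholds were chosen after the distributions were seen. The members and all lists were chosen with earlier results of these data known. Named genes were the 9 members, the 3 genes most like each, and the highest and lowest ratio of each list with those higher in another class; of the latter only a part is printed, and Retsat, Adh5 and Stra6 were named as highest in RPE. Some items of the lists are not reported here.

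Counts were summed per class and library as CPM, with exact Poisson intervals, conditional binomial intervals for ratios and Clopper-Pearson intervals for shares (scipy 1.17.1). Classes needed 10 cells. Each library is 1 pool, so no test was run. Ratio code was tested on simulated data. Alternatives used edgeR 4.0.16 for TMM factors and Leiden clusters (leidenalg 0.10.2) made without the members. The depth range, and leaving out interferon or rod-RNA cells, were added after seeing the data.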

Additional observations from a re-analysis of the deposited data

How the results depend on the processing

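The median log2 ratio of the 9 genes was -0.17 and stayed below 0 in 15 alternatives. It moved to -0.12 with a mitochondrial limit of 10%, to -0.13 without pigment-rich cells, to -0.19 in cells of 6000 to 15000 UMIs and with totals without Ttr and mitochondrial genes, to -0.35 under TMM scaling (where the median of all genes was -0.01), to -0.081 with an estimated free RNA share subtracted (18.6% of UMIs in NaIO3, 24.2% in PBS), to -0.23 as a mean of per-cell CPM and to -0.24 with thinned cells; the cause was not tested. The number of genes past 1.5-fold was 0 in all 15. The sign turned for Dhrs3 (-0.025 with a mitochondrial limit of 10%, -0.074 under TMM), Rrh (0.024 without pigment-rich cells), Rdh11 (-0.12 and -0.11 in the same 2 alternatives as Dhrs3) and Rlbp1 (4 of 15 alternatives, down to -0.17 under TMM, beside a main value of 0.0085); the main intervals of Rdh11 and Rlbp1 include a ratio of 1. The number highest in RPE-gated cells was 7, and 8 with stricter gates or clusters. No paired analysis was possible because each group holds 1 library. Depth limited Rdh11 and Dhrs3 in the rarer classes, where a few UMIs set each level, and treatment cannot be told apart from library.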

Other observations

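Of the RPE-gated cells, 79 in NaIO3 (3.51%) and 1 in PBS held at least 20 UMIs of 7 interferon-induced genes per 10000. In the 79 NaIO3 cells the visual cycle genes together were at 1.01 (0.995 to 1.02) of their level in the other NaIO3 RPE-gated cells. Lrat was at 1776 CPM (1697 to 1858) in these cells and 1473 CPM (1459 to 1488) in the others, a ratio of 1.21 (1.15 to 1.26), and Rdh10 was at 0.920 (0.876 to 0.965) of its level in the others. In PBS, 211 RPE-gated cells (6.08%) carried at least 20 UMIs of rod genes per 10000, and the visual cycle genes there were at 0.951 (0.943 to 0.960) of their level in the other PBS RPE-gated cells. Without the interferon cells, or without the cells carrying rod RNA, the median log2 ratio of the 9 genes between libraries was -0.17 each time.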
